A study of Mus musculus with 27 samples.

Results

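The sorted periosteal fractions P1 and P2 were compared gene by gene, P1 being CD105- CD200+ and P2 CD105- CD200-, with 3 libraries each, which are 6 of the 27 libraries of the series. All genes of the expression table entered, 30153 in number, and those that passed a filter on level were tested. The gene lists below were drawn up with earlier results of these data known. The animals were adult male and female Prx1-CreER/Ai14/Rag1 mice, in which tamoxifen switches on a red fluorescent reporter in cells that use the Prx1 promoter and in the progeny of these cells, and in which the Rag1 alleles leave no mature B or T cells. Every group carried these alleles and the tamoxifen, and cells were harvested 3 days after it. Periosteum was scraped from femur and tibia and digested with collagenase, and red reporter cells without CD45, a surface protein of white blood cells, were sorted on CD105 and CD200. A further fraction (P3) carried CD105, and the same fractions were taken from bone marrow and muscle. The label is a record of past Prx1 promoter use and of the sort gates, not of a cell type. Tissues came from the same animals, but the labels do not tie a library to an animal, so p-values measure the spread between libraries.

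Periosteum is the thin tissue over the outer surface of bone. Its outer layer is fibrous, its inner layer holds skeletal stem and progenitor cells and osteoblasts, and after a fracture its cells form both cartilage and bone. CD200 is a surface glycoprotein and CD105 (endoglin) is a co-receptor for TGF-beta ligands, and both have been used to order skeletal stem cells and their descendants.

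The values are normalized counts, which are not whole reads, so the sequencing depth and counting error behind a value are unknown. Their sums were 12840100 to 13822700 per P1 library and 13986200 to 24062800 per P2 library, and 13103 to 15368 genes were above 0 in a library. Pearson's r between libraries over the genes tested was 0.633 to 0.736 within P1, 0.496 to 0.524 within P2 and 0.274 to 0.467 between the groups. P1 replicate 1 and P2 replicate 2 stood apart from their groups, since 1559 and 1777 of the genes tested were at least 10 times lower in them than in both other replicates (on value + 1), against 256 to 710 genes in the other 4 libraries. P2 replicate 1 stood apart the other way, with 950 genes at least 10 times above both other replicates, against 181 to 537 in the other 5 libraries.

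The gate was visible in the transcripts. Cd200 (ENSMUSG00000022661, chromosome 16, 45382135 to 45409053, minus strand of GRCm38) was at 3972, 2614 and 2607 in P1 and 52.8, 9.08 and 7.24 in P2. All P1 libraries lay above all P2 libraries, with a log2 fold change of 7.51 ± 1.06 (SE) and an adjusted p = 0.0128, as the sort requires. Eng, which encodes CD105, was at 38.7, 159 and 10.4 in P1 and 66.7, 11.8 and 249.3 in P2, and the groups overlapped (adjusted p = 0.881). Ptprc, which encodes CD45, was at 0, 9.85 and 2.52 in P1 and 18.5, 31.99 and 184 in P2, higher in every P2 library than in any P1 library, without passing the test (adjusted p = 0.24). Prrx1, the gene behind the Prx1 promoter, was at 4578, 1516 and 2544 in P1 and 2377, 64.0 and 302 in P2 and overlapped (adjusted p = 0.248). A table entry for transgenes, whose content the sources used here do not define, was at 13208 to 19965 in P1 and 9235 to 13598 in P2. Both fractions thus held transgene signal and Prrx1 transcripts in every library.

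Of the 30153 genes, 12667 reached a normalized count of 10 in at least 3 of the 6 libraries and were tested with limma on log2(normalized count + 1). A gene was called with an adjusted p under 0.05 and an absolute log2 fold change above 1.5. Genes are named by a fixed rule (in the methods). List members beyond it, many of them called genes, were picked after their values were seen. In all, 558 genes were called (4.41% of those tested), 228 higher in P1 (1.8%) and 330 higher in P2 (2.61%). Leaving out a library in turn gave 112 to 515 calls, with 242 without P1 replicate 1, 153 without P1 replicate 2, 114 without P1 replicate 3, 125 without P2 replicate 2 and 112 without P2 replicate 3, while a fit that took its spread from all 9 groups gave 3370. Over the genes tested the log2 fold change had a median of 0.29, beside which list medians are to be read. When each library was scaled to the same total, that median became 0.72 and the split 295 higher in P1 and 287 higher in P2.

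**Figure D1:**
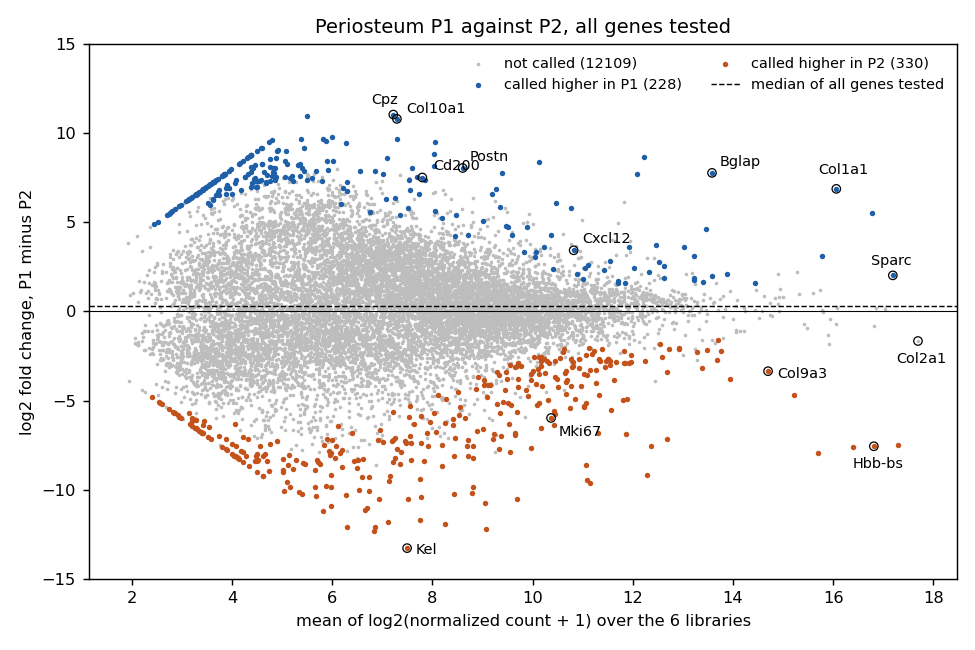
Log2 fold change (P1 minus P2, on the log2(normalized count + 1) scale) of the 12667 genes tested, against their mean level over the 6 libraries on the same log2 scale. Genes called higher in P1 (228, blue) and in P2 (330, orange) lie outside a grey band that widens towards low levels, and circles mark the named genes. Col2a1 is circled and was not called.

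Transcripts of mineralizing bone matrix were higher in P1. Of 18 genes for bone matrix and mineralization, all of which were tested, 10 were called higher in P1 and none in P2, with a median log2 fold change of 3.65. The 3 P1 libraries lay above the 3 P2 libraries for 14 of the 18, a pattern seen in 13.8% of all genes tested. The list took 11.3% to 21.7% of all normalized counts in P1 libraries and 0.653% to 1.24% in P2 libraries. Since these are bulk libraries, fewer cells of a type and less RNA per cell cannot be told apart, here or in any result that follows.

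Col1a1 and Col1a2 encode the chains of type I collagen, the main fibre of bone. Col1a1 (ENSMUSG00000001506, chromosome 11, 94936224 to 94953042, plus strand of GRCm38) was at 493351, 961564 and 853507 in P1 and 5699, 4942 and 8924 in P2, with a log2 fold change of 6.87 ± 0.31 (SE) and an adjusted p = 9.76e-05. Col1a2 was at 514697, 986049.6 and 849775 in P1 and 10927, 12876 and 32081 in P2, with a log2 fold change of 5.51 ± 0.41 (SE) and an adjusted p = 0.000911. Bglap (ENSMUSG00000074483, chromosome 3, 88383501 to 88384464, minus strand of GRCm38) encodes osteocalcin, a matrix protein of mature osteoblasts, and was at 132686, 234950.2 and 189423 in P1 and 1054, 656 and 821 in P2, with a log2 fold change of 7.77 ± 0.31 (SE) and an adjusted p = 7.72e-05. Its P2 libraries lay within a narrow range far below P1. Its neighbour Bglap2, at 73495, 122388 and 100229 in P1 and 642, 90.8 and 224 in P2, is a near copy with which it can share reads, so these values are not independent. Ibsp, for bone sialoprotein, was at 23002, 101367 and 110191 in P1 and 548, 1014 and 47.4 in P2, with a log2 fold change of 7.73 ± 1.12 (SE) and an adjusted p = 0.0135. Here P1 replicate 1 was the lowest of its group and P2 replicate 3 by far the lowest of all. Alpl, the phosphatase that frees phosphate for mineral, was at 14501, 25285 and 23237 in P1 and 497, 3053 and 2449 in P2 (log2 fold change 3.72, adjusted p = 0.0262). Sparc, a collagen-binding matrix protein, was at 232022, 375508 and 312882 in P1 and 51133, 74846 and 106567 in P2 (log2 fold change 2.02, adjusted p = 0.0128). The smaller step of Sparc left P2 with a substantial level. Ifitm5, an osteoblast membrane protein, Col5a1 and Col5a2, chains of type V collagen, were also called, with log2 fold changes of 8.82, 2.10 and 3.59. Spp1 (osteopontin) was at 16319.6, 80431 and 43069 in P1 and 4027, 49732 and 57692 in P2 and overlapped (adjusted p = 0.679), and Enpp1, which makes the mineralization inhibitor pyrophosphate, was lower in every P1 library than in any P2 library without being called (adjusted p = 0.227).

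Without each library in turn, 5 to 11 of these 18 genes were called, the fewest without P1 replicate 3, and Bglap, Bglap2, Col1a1 and Col1a2 were called in all 6 of those fits.

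Among transcription factors of the osteoblast lineage no gene was called, though the list median lay near the 3.65 of the bone matrix list. All P1 libraries lay above all P2 libraries for 5 of the 9 tested, beside 13.8% of all genes tested. Of 11 listed, 9 were tested and 0 were called, by limma at the adjusted threshold, with 4 at an unadjusted p under 0.05 and a median log2 fold change of 3.49; the fit over all 9 groups called 2. Runx2, which starts osteoblast formation, was at 1073, 929.8 and 1319 in P1 and 171, 559.6 and 453 in P2 (log2 fold change 1.64, adjusted p = 0.245), so that the groups did not overlap and all P2 libraries still held the transcript. Sp7 (osterix), which acts after Runx2, was at 1491, 1043 and 2078 in P1 and 1.67, 275 and 357 in P2 (log2 fold change 4.53, adjusted p = 0.219). P2 replicate 1 was near 0 for Sp7. Atf4, a stress-responsive factor used by many cells, was at 2527, 3152 and 3222 in P1 and 3381, 4415 and 3848 in P2 (log2 fold change -0.39, adjusted p = 0.539). Of the osteocyte genes, 4 of 6 were tested and 1 was called: Phex, an endopeptidase of osteoblasts and osteocytes, at 949, 2013 and 1793 in P1 and 79.6, 124 and 50.4 in P2 (log2 fold change 4.23, adjusted p = 0.0292), a call kept in 2 of the 6 fits that left out 1 library and lost without any of the P1 libraries or without P2 replicate 3. Dmp1, a mineral-binding matrix protein, was at 3133, 4467 and 4965 in P1 and 35.2, 5065 and 893 in P2 and overlapped (adjusted p = 0.336), and Sost was listed at 0 in all 6 libraries.

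A Runx core sequence, TGTGGT on either strand, lay in the RefSeq promoter window (250 bases before to 50 after the start, GRCm38.p6) of 5 of the 19 bone matrix and osteoblast factor genes with a window (26.3%), beside 18.9% of all 27025 genes with one. The stretch before the start of Bglap is shown because this gene had the smallest p of the comparison and its window held a match, while the like stretches of Ibsp and Col10a1 held 0 matches. The match is in capitals (minus strand, chr3:88384467-88384616).
Bglap: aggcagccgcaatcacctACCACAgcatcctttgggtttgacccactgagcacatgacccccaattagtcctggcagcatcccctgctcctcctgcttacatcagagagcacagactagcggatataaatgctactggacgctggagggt
The match begins 132 bases before the start and reads as the reverse complement of the core. It is a match of letters, not a measured site.

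**Figure D2:**
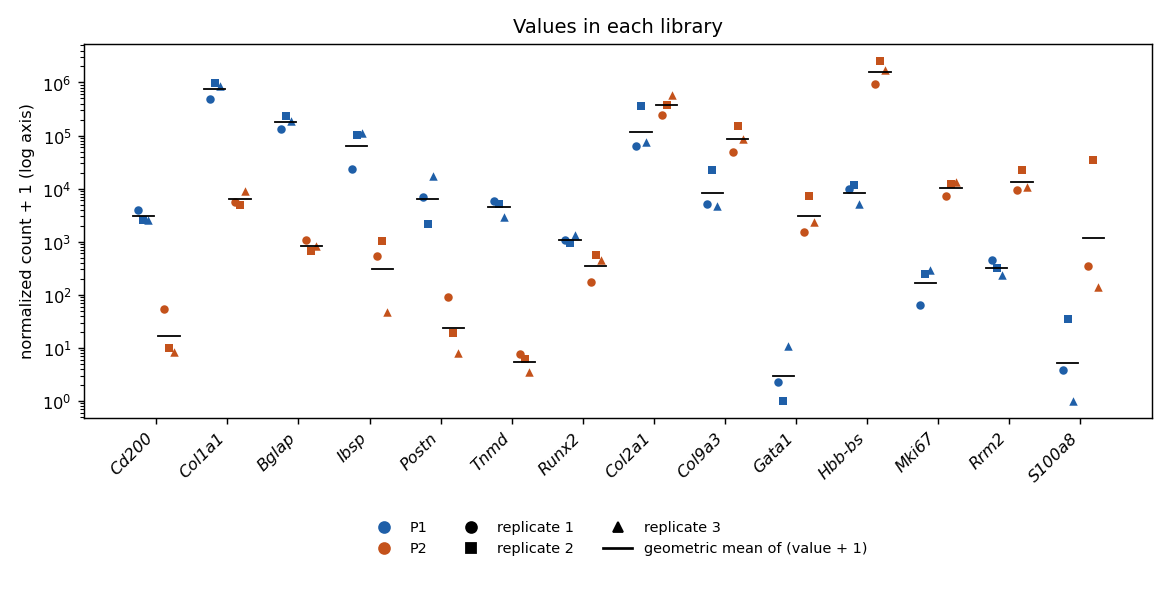
Normalized count + 1 (log axis) of 14 genes in each library, P1 in blue and P2 in orange, with a marker shape for each replicate and a bar at the geometric mean of the 3 values. The bone matrix genes, Postn and Tnmd lie higher in P1, the red cell genes, Mki67 and Rrm2 lie higher in P2, and Col2a1 overlaps.

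The largest fold changes towards P1 included genes outside bone matrix. Among called genes whose groups did not overlap and whose higher mean was at least 100, the 10 largest were Cpz, Cdo1, Col10a1, Tnfrsf19, Tnmd, Adam12, Clcn4-2, Cyp26a1, Insc and Mfap4. Apart from Mfap4, each had every P2 value under 10 and so passed the filter through P1 alone. For these genes the lack of overlap follows from the filter. Cpz, a secreted carboxypeptidase that binds Wnt ligands, was at 6262, 7171 and 7103 in P1 and 4.94, 0 and 4.76 in P2, with a log2 fold change of 11.04 ± 1.16 (SE) and an adjusted p = 0.00377. Cdo1, the enzyme that starts cysteine breakdown, was at 1199, 3043 and 2253 in P1 and 0, 0 and 0 in P2 (adjusted p = 0.00834), and Cyp26a1, which degrades retinoic acid, at 2793, 314 and 532 in P1 and 0, 0 and 0 in P2 (adjusted p = 0.0188). Both were listed at 0 in all P2 libraries, so no fold is given. Mfap4, a protein of elastic microfibrils, was at 14788, 5177 and 4834 in P1 and 10.6, 9.35 and 6.87 in P2 (log2 fold change 9.51, adjusted p = 0.00243). Tnfrsf19, a receptor of the TNF receptor family, was at 1722, 1518 and 2604 in P1 and 3.34, 0 and 1.21 in P2 (log2 fold change 9.80, adjusted p = 0.0128). Adam12, a membrane metalloprotease, Clcn4-2, a chloride and proton exchanger, and Insc, an adaptor that orients the mitotic spindle, had P1 values of 939.98 to 2334 and P2 values of 0 to 6.70. At such low P2 values the fitted fold depends on the pseudocount. Cpz, Tnmd and Mfap4 were called in all 6 fits without 1 library. Without P1 replicate 3 none of the other 7 was called, and without P1 replicate 2 only Cdo1 among these 7 was called. Clcn4-2 was also not called without P1 replicate 1, and Cyp26a1 was not called without P2 replicate 2 or 3. Gpx3, a secreted glutathione peroxidase, was among the 5 genes with the highest mean normalized count in P1 (not divided by gene length), together with Col1a2, Col1a1, Sparc and Bglap, and was at 316084, 92432 and 148799.8 in P1 and 12916, 16049 and 34095 in P2 (log2 fold change 3.09, adjusted p = 0.0188). Its call was lost without P1 replicate 1 or 3 and without P2 replicate 2.

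A few genes of tendon, fibrous tissue and the progenitor compartment were called, all towards P1. Over all genes tested, 1.8% were called higher in P1 and 6961 of 12667 had a log2 fold change above 0. Of 13 tendon and fibroblast genes tested, 2 were called higher in P1 and 0 in P2, with a median of 2.50 and 12 of 13 log2 fold changes above 0. Over the 6 fits without 1 library, 1 to 3 were called. Tnmd (tenomodulin), a membrane protein of tendon and ligament cells, was at 5843, 5220.4 and 2929.9 in P1 and 6.75, 5.2 and 2.44 in P2, with a log2 fold change of 9.67 ± 1.03 (SE) and an adjusted p = 0.00386. Scx, the transcription factor of tendon progenitors, was at 113, 42.6 and 227 in P1 and 0, 0 and 0 in P2 (adjusted p = 0.0317) and was called in 0 of the 6 fits without 1 library. Col3a1, the chain of type III collagen of fibrous tissue, was at 92889, 30484 and 87248 in P1 and 20758, 7972 and 19145 in P2 (log2 fold change 2.09, adjusted p = 0.0622), with all P1 libraries above P2. For Cd34 and Mfap5, which general fibroblasts express, the groups overlapped. Cd34 was at 10289.6, 2917 and 2588 in P1 and 15386, 2834 and 2979 in P2 (adjusted p = 0.872). Mfap5 was at 13632, 3584 and 4133 in P1 and 9437, 1541 and 3288 in P2 (adjusted p = 0.612). For both, P1 replicate 1 and P2 replicate 1 held the higher values and the other 4 libraries lower ones. Dpp4, a marker of adventitial fibroblasts, showed this within P2 alone, at 219.8, 47.2 and 562 in P1 and 3581, 10.3 and 29.3 in P2. Of 10 small leucine-rich proteoglycans tested, 2 were called higher in P1, Ogn and Kera, which bind collagen fibrils. Ogn was at 20872, 7815 and 14975 in P1 and 2249.8, 974 and 625 in P2 (log2 fold change 3.60, adjusted p = 0.0188). Kera was at 1708, 2911 and 1704 in P1 and 8.37, 1.72 and 0 in P2 (log2 fold change 9.44, adjusted p = 0.0155); both calls were lost without P1 replicate 1 and without P1 replicate 3. Dcn (decorin) was at 106720.1, 95120.1 and 60752 in P1 and 43893, 5872 and 23558 in P2. Bgn (biglycan) was at 56188, 47819 and 41335 in P1 and 17828, 15893 and 29784 in P2, each higher in all P1 libraries, and Bgn missed the call on fold size alone (log2 fold change 1.24, adjusted p = 0.0461).

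Markers used for skeletal stem and progenitor cells were called in 2 of 13 tested, with a median of 2.25. Postn (periostin, ENSMUSG00000027750, chromosome 3, 54361109 to 54391037, plus strand of GRCm38), a matricellular protein named for periosteum, was at 6824, 2157 and 17113 in P1 and 88.5, 17.9 and 7.11 in P2, with a log2 fold change of 8.04 ± 1.16 (SE) and an adjusted p = 0.0135. Cxcl12, the chemokine that retains hematopoietic stem cells, was at 5623, 4051 and 9103 in P1 and 449, 702 and 526 in P2, with a log2 fold change of 3.43 ± 0.48 (SE) and an adjusted p = 0.0128. Without P1 replicate 3 neither was called. Ctsk, a collagen-degrading protease, was at 3791, 3349 and 3096 in P1 and 283, 740.4 and 1749 in P2 (log2 fold change 2.25, adjusted p = 0.119). Lepr, the leptin receptor, was at 2436, 448 and 1302 in P1 and 415, 210.5 and 239 in P2 (log2 fold change 2.03, adjusted p = 0.222), each with all P1 libraries above P2. Pdgfra, the PDGF receptor of mesenchymal cells, was at 4431, 2832 and 1460.4 in P1 and 2001, 939 and 963 in P2. Ly6a (Sca-1) was at 11611, 3983 and 4249 in P1 and 22832, 2274 and 3276 in P2, and both overlapped (adjusted p = 0.326 and 0.969). For Ly6a the highest of the 6 values was in P2 replicate 1. Grem1, a BMP inhibitor, and Calcr, the calcitonin receptor, were under 125 in every library and were not called. Of 11 matrix proteases and inhibitors tested, 3 were called higher in P1. Mmp2, a gelatinase, was at 35765, 19758 and 29642 in P1 and 4175, 1742 and 4753 in P2 (log2 fold change 3.08, adjusted p = 0.013). Adamts2, which trims procollagen, was at 4654, 3828 and 6242 in P1 and 214, 249.8 and 115 in P2 (log2 fold change 4.71, adjusted p = 0.0068). Timp3, a protease inhibitor, was at 16051, 7763 and 10689.7 in P1 and 3019, 2492 and 1744 in P2 (log2 fold change 2.22, adjusted p = 0.0256). Leaving out P1 replicate 3 left 0 of these calls.

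Cartilage transcripts were present in both fractions. Of 24 cartilage genes 23 were tested, 1 was called in each direction, and the median was -1.78. Col2a1 (ENSMUSG00000022483, chromosome 15, 97975602 to 98004695, minus strand of GRCm38), the chain of type II collagen, was among the 5 genes with the highest mean normalized count in P2, at 62224, 359279 and 75226 in P1 and 240598, 374590.5 and 590511 in P2. P1 replicate 2 reached the P2 range, and the gene was not called (log2 fold change -1.66, adjusted p = 0.205). The same shape, with P1 replicates 1 and 3 low and P1 replicate 2 near P2, was seen for Acan (aggrecan) at 1433, 9057 and 2622 in P1 and 4937, 11478 and 7947 in P2 (adjusted p = 0.344) and for Sox9. Sox9, the transcription factor of chondrocytes, was at 883, 3608 and 1119 in P1 and 2291, 4382 and 6556 in P2 (adjusted p = 0.281). Without P1 replicate 2, 7 cartilage genes were called higher in P2. The gene called higher in P2 was Col9a3, a chain of type IX collagen, at 5221, 22915 and 4799 in P1 and 48488, 148459.7 and 85315 in P2 (log2 fold change -3.35, adjusted p = 0.0297), and this call was lost without P1 replicate 1 or 3 and without P2 replicate 2 or 3. The gene called higher in P1 was Col10a1 (ENSMUSG00000039462, chromosome 10, 34389981 to 34397085, plus strand of GRCm38), the collagen of hypertrophic chondrocytes, at 3657, 19594 and 4022 in P1 and 0, 5.16 and 7.28 in P2, with a log2 fold change of 10.80 ± 1.31 (SE) and an adjusted p = 0.00694; it was not called without P1 replicate 2 or 3. All P2 libraries lay above P1 for 4 of the 23 cartilage genes tested, beside 15% of all genes tested. Of these 4, Col9a3 alone met the call threshold. Comp, a matrix protein of cartilage and tendon, was at 31039, 35207 and 15651 in P1 and 14414, 38674 and 50291 in P2. Col11a1, a chain of type XI collagen, was at 12967, 49715 and 24799.7 in P1 and 18957, 33329 and 40170.3 in P2. The groups overlapped for both.

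Red cell transcripts took a large share of every P2 library. The 4 adult globin genes took 24.1%, 38.6% and 32.1% of all normalized counts in the P2 libraries and 0.283%, 0.339% and 0.117% in the P1 libraries. Erythroblasts, the nucleated precursors of red cells, divide while they fill with haemoglobin and lose CD45 as they mature, which is background and not a result. Of 16 globin and heme synthesis genes tested, 15 were called higher in P2 and 0 in P1 (median -6.84), and all 16 had every P2 library above every P1 library, which 15% of all genes tested had. Of 9 erythroid transcription factors and receptors 6 were called (median -7.49), of 16 red cell membrane genes 13 (median -9.39) and of 7 red cell maturation genes 4 (median -4.93), all towards P2.

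Hbb-bs (ENSMUSG00000052305, chromosome 7, 103826534 to 103828096, minus strand of GRCm38) was at 9633, 11817 and 5107 in P1 and 922600, 2538708 and 1688811 in P2, with a log2 fold change of -7.57 ± 0.41 (SE) and an adjusted p = 0.000299, and Hba-a2 was at 16555, 17385 and 5964 in P1 and 1190560, 3612411 and 2246217 in P2, with a log2 fold change of -7.47 ± 0.49 (SE) and an adjusted p = 0.000596. Hba-a1 with Hba-a2, and Hbb-bs with Hbb-bt, are near copies among which reads can be split, and all 4 had log2 fold changes between -7.93 and -7.47. P1 libraries were not free of globin, and P1 replicate 3 was the lowest for each of the 4 genes. Alas2, the first enzyme of heme synthesis in red cells, was at 7.97, 714 and 192 in P1 and 22699, 77296 and 45101 in P2 (log2 fold change -8.64, adjusted p = 0.021). Slc25a37 (mitoferrin), which brings iron into mitochondria, was at 445, 190.4 and 158 in P1 and 16183, 41665 and 28049 in P2 (log2 fold change -6.81, adjusted p = 0.00125). Tfrc, the transferrin receptor, was at 5.49, 269.6 and 198 in P1 and 6982, 18873 and 21738 in P2 (log2 fold change -7.66, adjusted p = 0.0258). Abcb10, a mitochondrial transporter, was the member not called, at 3.96, 646 and 508 in P1 and 4347, 13140.1 and 6689 in P2 (log2 fold change -5.94, adjusted p = 0.106).

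Gata1, the main transcription factor of red cells, was at 1.23, 0 and 9.84 in P1 and 1529.96, 7311 and 2397 in P2 (log2 fold change -10.02, adjusted p = 0.0135). Its partners Tal1, at 24.1, 1.41 and 0.78 in P1 and 1391, 2689.5 and 1049 in P2 (log2 fold change -8.37, adjusted p = 0.0262), and Lmo2, at 1.9, 1.54 and 68.4 in P1 and 1344, 4979 and 3132 in P2 (log2 fold change -8.43, adjusted p = 0.0269), showed the same order. Epor, the erythropoietin receptor, was at 0.655, 17.01 and 0.888 in P1 and 1778, 3781 and 2156 in P2 (log2 fold change -9.31, adjusted p = 0.0165). Klf1, the factor that turns on adult beta globin, was at 0.655, 2.22 and 3.56 in P1 and 16.9, 5814 and 1363 in P2 and not called (log2 fold change -7.49, adjusted p = 0.119), with P2 replicate 1 close to the P1 values. Bcl11a overlapped. Without P2 replicate 2 this list had 0 calls, and the globin and heme, membrane and maturation lists had 7, 7 and 2. Without P2 replicate 3 the 4 counts were 0, 6, 7 and 1, without P1 replicate 2 they were 3, 10, 10 and 1, and without P1 replicate 3 they were 4, 8, 10 and 1. In the fit over all 9 groups they were 8, 16, 16 and 7.

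The largest fold change of the whole comparison was that of Kel (ENSMUSG00000029866, chromosome 6, 41686330 to 41704339, minus strand of GRCm38), the Kell blood group protein, at 2.39, 0.74 and 0 in P1 and 10239, 29865 and 18967 in P2, with a log2 fold change of -13.28 ± 1.04 (SE) and an adjusted p = 0.00115. Rhd, the Rh blood group antigen, was at 3.93, 2.22 and 6.09 in P1 and 12670.4, 29268 and 18569 in P2 (log2 fold change -11.94, adjusted p = 0.000666). Slc4a1 (band 3), the anion exchanger, was at 66.5, 441 and 16.5 in P1 and 37159, 114948 and 61084 in P2 (log2 fold change -9.63, adjusted p = 0.00478). The same rule that named the P1 genes also gave Kif18b, a mitotic kinesin; Slfn14, a ribosome-associated nuclease; Trim10, a RING finger protein of red cell precursors; Apol11b, an apolipoprotein L; Cldn13, a claudin; Dyrk3, a kinase; and Fbxo5, an inhibitor of the anaphase-promoting complex. Their P2 values ran from 1281 to 19437 and their P1 values from 0 to 5.43. With every P1 value under 10, these genes, Kel and Rhd passed the filter through P2 alone. Their lack of overlap thus follows from the filter. Kel, Rhd and Slc4a1 were called in each of the 6 fits without 1 library. Trim58, a ubiquitin ligase of maturing red cells, was listed at 0 in all P1 libraries and at 225 to 944 in P2 (adjusted p = 0.0188), and Bpgm, which makes 2,3-bisphosphoglycerate, was at 623, 304 and 197 in P1 and 4089, 20389 and 12641 in P2 (log2 fold change -4.92, adjusted p = 0.0135).

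**Figure D3:**
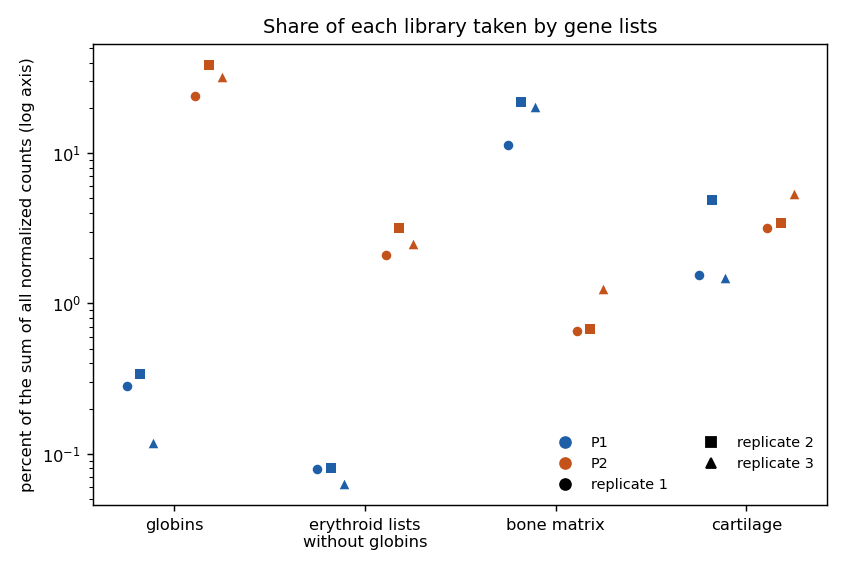
Share of each library's summed normalized counts (percent, log axis) taken by the 4 globin genes, by the 4 red cell lists without those globins, by 18 bone matrix genes and by 24 cartilage genes, with P1 in blue, P2 in orange and a marker shape for each replicate. The groups lie apart for globins, other red cell genes and bone matrix, and overlap for cartilage.

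The GATA core AGATAA, on either strand, lay in the promoter window of 9 of the 36 red cell genes with a window (25%), beside 12.7% of all genes. Of 4 red cell stretches read, those of Alas2 and Kel are shown because they held a match, and those of Hbb-bt and Rhag held 0. Capitals mark the match, on the plus strand for Alas2 (chrX:150547297-150547416) and the minus strand for Kel (chr6:41704326-41704445).
Alas2: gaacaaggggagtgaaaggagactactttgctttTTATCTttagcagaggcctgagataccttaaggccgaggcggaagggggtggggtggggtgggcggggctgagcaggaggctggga
Kel: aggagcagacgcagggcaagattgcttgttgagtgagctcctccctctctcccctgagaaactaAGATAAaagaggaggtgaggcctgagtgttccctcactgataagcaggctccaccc
The matches begin 86 and 56 bases before the start. CCACACCC, a Klf motif that can overlap the Runx core on the other strand, lay in 1 of these 36 windows and in 4.09% of all windows.

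Genes of DNA replication and mitosis were also called higher in P2. Of 38 G1/S genes tested 10 were called higher in P2 (median -3.52), of 43 G2/M genes 26 (median -6.07), and of 49 replication-dependent histone genes 19 (median -5.97), with 0 called higher in P1 in any of the 3 lists. All P2 libraries lay above all P1 libraries for 25, 39 and 41 of these genes, a pattern seen in 15% of all genes tested. Some histone genes, such as Hist1h2ad and Hist1h2bf, were at 0 in all P1 libraries and passed the filter through P2 alone. So did Gmnn of the G1/S list and Bub1 of the G2/M list, with every P1 value under 10. For such genes this order follows from the filter. Mki67 (ENSMUSG00000031004, chromosome 7, 135689784 to 135716361, minus strand of GRCm38), the Ki-67 antigen of cycling cells, was at 63.1, 244 and 292 in P1 and 7187, 12263 and 13076 in P2, with a log2 fold change of -5.98 ± 0.68 (SE) and an adjusted p = 0.00546. Rrm2, which makes deoxynucleotides, was at 447, 325 and 236 in P1 and 9500.4, 22740.2 and 10915 in P2 (log2 fold change -5.35, adjusted p = 0.00243). Pcna, the clamp of DNA polymerases, was at 1045, 1135 and 795 in P1 and 5183, 9652 and 6458 in P2 (log2 fold change -2.81, adjusted p = 0.0145). Pcna had over 795 in every P1 library, and Mki67 between 63.1 and 292 in them. Cdc45, Mcm2 and Rrm1 of the G1/S list and Ncapd2 and Rangap1 of the G2/M list were not called by limma. Their log2 fold changes ran from -5.09 to -4.35 and their adjusted p from 0.0541 to 0.22.

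Cdk1, the kinase that starts mitosis, was at 265, 160.1 and 408 in P1 and 5081, 3451 and 4972 in P2 (log2 fold change -4.09, adjusted p = 0.0119). Ube2c, which helps destroy cyclins at anaphase, was at 177, 288 and 64.3 in P1 and 9157, 16190.2 and 13628 in P2 (log2 fold change -6.40, adjusted p = 0.00317). Birc5 (survivin) was at 4.04, 506 and 44.1 in P1 and 5428, 18931 and 15295 in P2 (log2 fold change -7.90, adjusted p = 0.0299), with P1 replicate 2 above the other P1 libraries. Ndc80, of the kinetochore, was listed at 0 in all P1 libraries and at 784.7 to 1649.6 in P2 (adjusted p = 0.0128). Hist1h2ap was at 272, 1141 and 548 in P1 and 46216, 130668 and 80164 in P2 (log2 fold change -7.14, adjusted p = 0.00125); histone genes of this cluster are near copies whose reads may be split. Cell cycle inhibitors and D-type cyclins gave 0 calls among 8 tested with limma, 6 at an unadjusted p under 0.05 and 2 calls in the fit over all 9 groups. Cdkn1a (p21) was at 4016, 6833 and 4909 in P1 and 3927, 1663 and 2058 in P2. Cdkn1c (p57) was at 1314, 1101 and 894 in P1 and 342, 239 and 338 in P2, both higher in all P1 libraries. Without P2 replicate 3, only 1 G1/S gene, 8 G2/M genes and 1 histone gene were called, and without P2 replicate 2 the counts were 2, 11 and 3. Without P1 replicates 1, 2 and 3 in turn they were 5, 18 and 4, then 5, 19 and 3, then 3, 12 and 2. How far red cell precursors and other cells of P2 share these transcripts was not tested.

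The cell cycle homology region TTTGAA, on either strand, lay in the promoter window of 29 of 39 G2/M genes with a window (74.4%) and 6 of 27 G1/S genes (22.2%), beside 20.2% of all genes. CCAAT, which can share 1 base with it, lay in 32 of the 39 (82.1%) and 20 of the 27 (74.1%), beside 41.1%. Of 4 stretches of 100 bases read before the start, those of Cdk1 and Ube2c are shown because they held a match, and those of Ccnb2 and Hmmr held 0. They are printed with TTTGAA or its reverse complement in capitals, on the minus strand for Cdk1 (chr10:69352913-69353012) and the plus strand for Ube2c (chr2:164769829-164769928).
Cdk1: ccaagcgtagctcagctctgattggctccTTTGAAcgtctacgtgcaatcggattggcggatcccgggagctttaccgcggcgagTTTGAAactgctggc
Ube2c: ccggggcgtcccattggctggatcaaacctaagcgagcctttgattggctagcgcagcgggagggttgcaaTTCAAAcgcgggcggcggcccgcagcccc
In Cdk1 the matches begin 71 and 15 bases before the start, and in Ube2c 29 bases before it.

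Of 36 collagen genes tested over the whole family, 7 were called higher in P1 and 1, Col9a3, in P2 (median 0.68). Without P1 replicate 3 the counts were 3 and 0, and without P1 replicate 2 they were 4 and 4. The call in P2 was also lost without P1 replicate 1 and without P2 replicate 2 or 3. Of 13 Hox genes tested 1 was called, Hoxb2, a positional factor, higher in P1 at 167, 316 and 315 in P1 and 0, 6.98 and 0 in P2 (adjusted p = 0.0462). It was called in 0 of the 6 fits without 1 library.

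**Figure D4:**
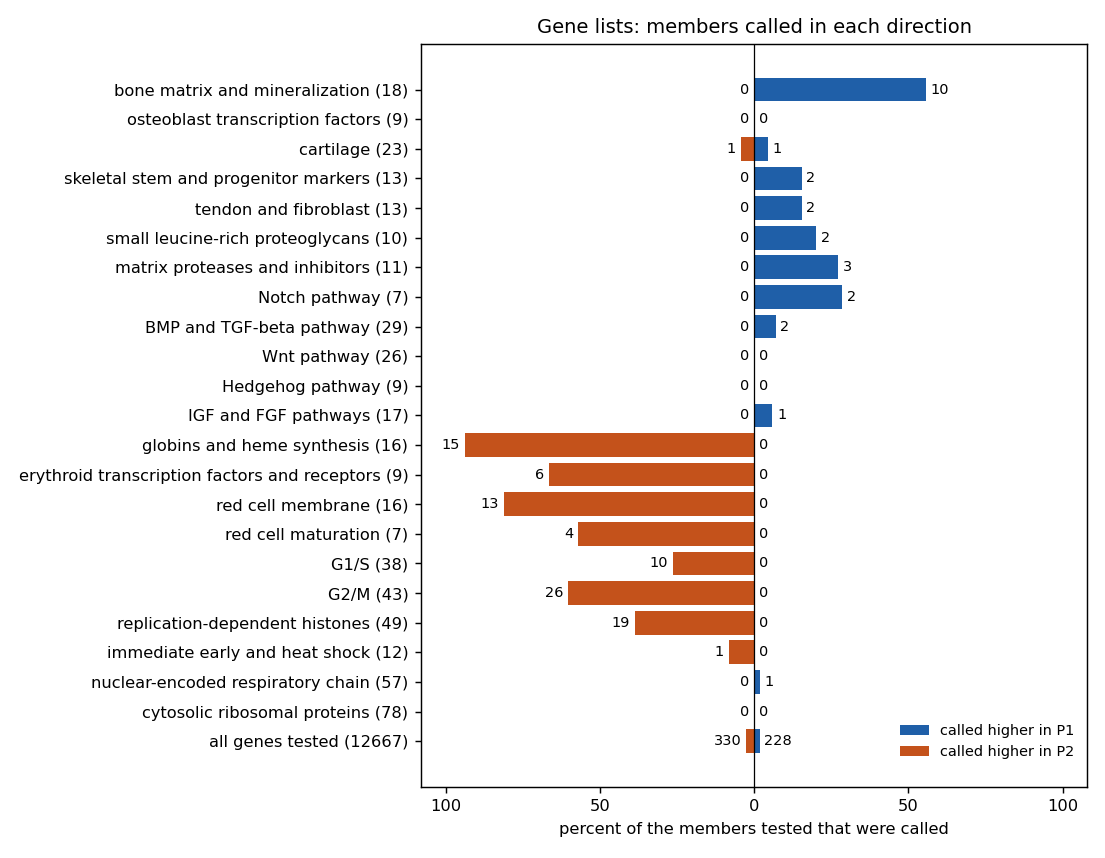
Percent of the tested members of 22 gene lists and of all genes tested that were called higher in P1 (blue, to the right) or in P2 (orange, to the left), with the number called at each bar and the number tested in parentheses. The red cell, G2/M and histone lists extend to the left, bone matrix extends to the right, and Wnt, Hedgehog, osteoblast factor and ribosomal protein lists have no call.

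Signalling genes gave few calls, all towards P1. Of 29 BMP and TGF-beta genes tested 2 were called, the ligand Tgfb3 at 8542, 2812 and 5123 in P1 and 597, 12.03 and 81.3 in P2 (log2 fold change 5.85, adjusted p = 0.0462) and the target Id3, an inhibitor of helix-loop-helix factors, at 18047, 15124 and 13067 in P1 and 3544, 2017 and 2482 in P2 (log2 fold change 2.55, adjusted p = 0.00907). The values of Tgfb3 in P2 spread widely and its call was kept in 1 of the 6 fits without 1 library, while that of Id3 was kept in all 6. The ligand Bmp2 was at 312, 316 and 651 in P1 and 927, 0 and 515 in P2. The related Bmp4 was at 822, 577 and 432 in P1 and 766, 1.83 and 274 in P2. The groups overlapped for both, with P2 replicate 2 at or near 0. Of 7 Notch genes tested 2 were called, the nuclear targets Hey1 at 747, 203 and 219 in P1 and 0, 0 and 0 in P2 (adjusted p = 0.0228) and Heyl at 511, 304 and 199 in P1 and 2.75, 1.41 and 0 in P2 (log2 fold change 7.24, adjusted p = 0.034). Neither was called without P1 replicate 2 or 3 or without P2 replicate 2 or 3. Hes1, another target, was at 1557, 1379 and 1181 in P1 and 240.3, 137 and 260.1 in P2 (log2 fold change 2.73, adjusted p = 0.0568), and the receptors Notch1, Notch2 and Notch3 overlapped. Among 17 IGF and FGF genes the growth factor Igf2 was called, at 6559.7, 769 and 1800.02 in P1 and 16.6, 19.7 and 26.2 in P2 (adjusted p = 0.0211), while Igf1 was at 12769.8, 4779 and 4391 in P1 and 1493, 105 and 1409.8 in P2 (log2 fold change 3.41, adjusted p = 0.119), also without overlap. The call of Igf2 was lost without any of the P1 libraries and without P2 replicate 3.

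Of 26 Wnt genes tested with limma 0 were called, 7 had an unadjusted p under 0.05, the median was 2.13 and the fit over all 9 groups called 7. The ligand Wnt5a was at 1081, 519 and 844 in P1 and 27.4, 8318 and 16.01 in P2, with the highest value in P2 replicate 2 and the other P2 libraries low. Wnt5b was at 686, 344 and 422 in P1 and 1.7, 0 and 32.7 in P2 (log2 fold change 6.69, adjusted p = 0.0781). The secreted inhibitor Wif1 was at 3039, 2665 and 3258 in P1 and 1197, 6343 and 4539.8 in P2 and overlapped. Of 9 Hedgehog genes 0 were called, with 3 at an unadjusted p under 0.05 and 3 called in the fit over all 9 groups. The co-receptors Boc and Gas1 and the factor Gli2 were the 3 with all P1 libraries above P2. Of 8 niche and osteoclast-regulating factors tested 0 were called, 3 had an unadjusted p under 0.05 and 4 were called in the fit over all 9 groups; Csf1, the macrophage growth factor, was at 1476, 371 and 1009 in P1 and 1649.7, 4.79 and 263 in P2 and overlapped.

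Markers of other cell types varied in level between genes and libraries, and few were called by limma. Of 13 neutrophil genes 3 were tested, and the summed level of the list was 166 to 352 in P1 and 922, 106746 and 359 in P2 replicates 1, 2 and 3. The high sum was that of P2 replicate 2, where S100a8, a calcium-binding protein of neutrophils, was at 34147 beside 348.9 and 139 in the other P2 libraries. Ngp, a neutrophil granule protein, was at 27041 there and under 13 in each other library, while Elane, which defines early granulocytes, was listed at 0 in all 6. The neutrophil gene called was Mmp8, a collagenase, higher in P1 at 152, 136 and 81.1 in P1 and 0, 0 and 0 in P2 (adjusted p = 0.0267). It was called in 1 of the 6 fits without 1 library, that without P1 replicate 1. Lyz2, of monocytes and granulocytes, was at 25.6, 0.749 and 109.9 in P1 and 613, 10364 and 233 in P2 (log2 fold change -6.05, adjusted p = 0.148), and 0 of 4 monocyte and macrophage genes tested were called, with 1 at an unadjusted p under 0.05 by limma and 2 called in the fit over all 9 groups. No lymphocyte gene (of 11) or mast cell gene (of 6) reached the filter, with sums of 0 to 196 and 0 to 102 per library. Pf4, a platelet chemokine, was at 49.9, 138 and 0 in P1 and 40.1, 878 and 0 in P2. Itga2b, a platelet integrin, was at 28.8, 319.9 and 209.6 in P1 and 0, 2996 and 794 in P2. Of the list, 0 of 5 megakaryocyte genes tested were called by limma or by the fit over all 9 groups, with 0 at an unadjusted p under 0.05.

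Endothelial genes were tested in 5 of 10 cases and 0 were called by limma (0 at an unadjusted p under 0.05). Cdh5, which defines the type, was under 16 in all libraries. Tek, another gene of the list, was at 1512, 9.94 and 450 in P1 and 1392, 948 and 4.73 in P2. The list summed to 360 to 1878 in P1 and 533 to 1725 in P2. Of 7 mural genes tested 1 was called, Acta2 (smooth muscle actin), at 3195, 1401 and 1475 in P1 and 124, 27.6 and 13.4 in P2 (log2 fold change 5.66, adjusted p = 0.0292), a call kept in 1 of the 6 fits without 1 library, and Tagln was at 1082, 853 and 991 in P1 and 90.8, 3.45 and 0 in P2 (log2 fold change 7.03, adjusted p = 0.0757). Cspg4, also a mural gene, had the opposite sign and was not called by limma (log2 fold change -1.12, adjusted p = 0.338). It was at 986, 1934 and 1952 in P1 and 1540, 5718 and 4318 in P2. Adipoq, the fat cell hormone, was at 339.6, 46.9 and 1111 in P1 and 1.67, 1.71 and 0 in P2 (log2 fold change 7.09, adjusted p = 0.0576). By limma 0 of 3 Schwann, 4 muscle, 3 fat cell and 4 osteoclast genes tested were called, with 0, 1, 2 and 1 at an unadjusted p under 0.05. The fit over all 9 groups called 0 Schwann genes, 2 muscle genes higher in P2, 2 fat cell genes higher in P1 and 1 osteoclast gene each way. Sox10, Myh4 and Dcstamp were listed at 0 in at least 4 of the 6 libraries, but other members of these lists were not low. S100b of the Schwann list was at 1311, 977 and 1148 in P1 and 231, 1322 and 2592 in P2. Lpl of the fat cell list was at 2774, 1340 and 3810 in P1 and 462, 928 and 697 in P2. Acp5 of the osteoclast list was at 682, 0 and 93.0 in P1 and 180, 2916 and 2240 in P2. The part of these cell types in the results above was not tested.

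Among genes that most cells use, few were called. Of 78 cytosolic ribosomal protein genes tested with limma 0 were called, 13 had an unadjusted p under 0.05, the median was 0.61 beside 0.29 for all genes, and the fit over all 9 groups called 2. Of 57 nuclear genes of the respiratory chain 1 was called (median 0.35): Ndufs8, a subunit of complex I, listed at 0 in all P2 libraries and at 374.7, 77.5 and 117 in P1. Respiring cells need this gene, so a listed 0 in these libraries need not mean that the transcript was absent. Of 12 immediate early and heat shock genes, which can rise when tissue is digested, 1 was called, Dusp1, a phosphatase that switches off MAP kinases, higher in P2 at 7021, 7237 and 8592 in P1 and 25208, 23730.4 and 20984 in P2 (log2 fold change -1.62, adjusted p = 0.0133). That call was not made under quantile normalization, with libraries scaled to the same total, in the fit over all 9 groups, without P1 replicate 2 or 3 or without P2 replicate 2 or 3. Fos was at 35832, 50435 and 44268 in P1 and 23451, 23162 and 27761 in P2. Jun was at 18312, 15117 and 19387 in P1 and 6312, 13559.8 and 14703 in P2, both higher in all P1 libraries and not called.

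The same P1 to P2 step was measured in bone marrow and muscle, and the difference of the steps was tested directly in 12 libraries each time. Both tests use the same 6 periosteum libraries, so their results are given side by side only. Against bone marrow 645 of 17151 genes were called (3.76%), 390 with a larger and 255 with a smaller P1 minus P2 value in periosteum. Against muscle 989 of 15274 were called (6.48%), 548 larger and 441 smaller. The median difference over all genes tested was 0.59 against bone marrow and -0.01 against muscle. The splits depended on scaling, with 86 larger and 233 smaller against bone marrow under quantile normalization, and 331 larger and 791 smaller against muscle when libraries were scaled to the same total without globins, where the median difference became -0.69. Leaving out 1 library moved the first count by over 1.5 times for bone marrow P1 replicate 1 (356), replicate 2 (412) and replicate 3 (345) and for periosteum P2 replicate 1 (1228). It moved the second for each muscle library (470 to 632) and for periosteum P2 replicate 1 (1766).

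Red cell and cell cycle lists fell on the P2 side in both periosteum and bone marrow. The median log2 fold change of the globin and heme list was -6.84 in periosteum, -5.43 in bone marrow and -1.88 in muscle, and that of the G2/M list was -6.02 over 44 genes in periosteum, -4.79 in bone marrow and -0.83 in muscle. The difference was called for 0 of 16 globin and heme genes against bone marrow and for 5 of 16 against muscle, and for 1 of 44 and 13 of 43 G2/M genes. For the red cell membrane list it was called for 5 of 17 genes against bone marrow (median difference -3.62) and 6 of 17 against muscle, all lower in periosteum. Hba-a2 shows the levels, with 1190560 to 3612411 in periosteum P2, 2704515 to 4149695 in bone marrow P2 and 63109.7 to 111889.7 in muscle P2.

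Cartilage and bone matrix genes differed between the tissues. The cartilage list median was -1.75 in periosteum, -0.41 in bone marrow and 3.60 in muscle, and the difference was called for 3 of 24 genes against bone marrow and 12 of 24 against muscle, all smaller in periosteum. Col2a1 was at 143665, 171864 and 89106 in P1 and 243, 70.8 and 289.96 in P2 in bone marrow and at 5054, 14155 and 1812 in P1 and 67.6, 191 and 630.4 in P2 in muscle, so that P1 lay above P2 in both, while the periosteum fractions overlapped. For bone matrix the difference was called for 8 of 18 genes against bone marrow, all smaller in periosteum, and for 5 of 18 against muscle, all larger. Col1a1 showed both orders, with a difference of -3.57 ± 0.60 (SE, adjusted p = 0.0086) against bone marrow and of 4.66 ± 0.41 (SE, adjusted p = 0.000144) against muscle. Of 58 respiratory chain genes 40 had a called difference against muscle, all larger in periosteum, where the list median was 0.35 beside -2.23 in muscle. The muscle fractions also differed in muscle fibre genes. The 9 genes of the muscle list summed to 22430.5 to 40692 in muscle P1 and 1698960 to 1828873 in muscle P2, and to 2.01 to 228 in periosteum P1 and 134 to 1572 in periosteum P2. Their part in the respiratory chain difference was not tested. Tnmd differed in both tests, by 7.56 ± 1.42 (SE, adjusted p = 0.0136) against bone marrow and 4.67 ± 0.99 (SE, adjusted p = 0.0173) against muscle.

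**Figure D5:**
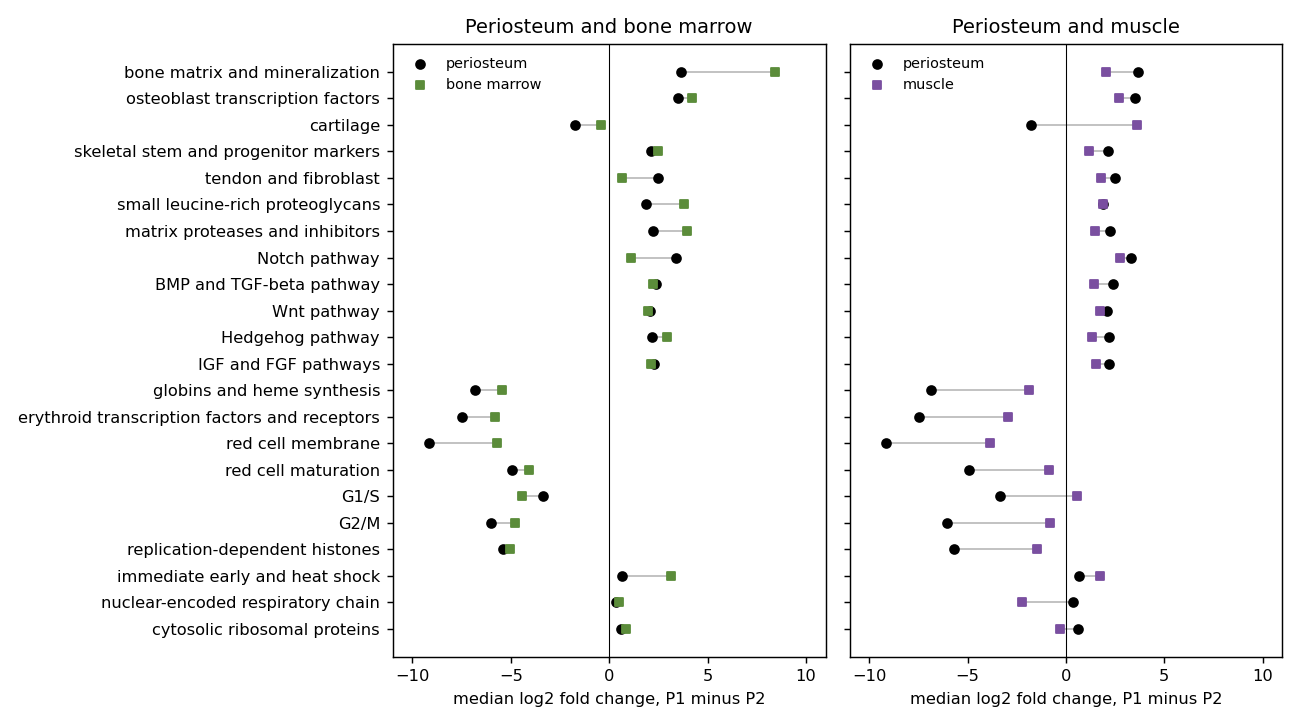
Median log2 fold change (P1 minus P2) of 22 gene lists in periosteum (black circles) beside bone marrow (left, green squares) and muscle (right, purple squares), with a grey line between the values of a list. Red cell and cell cycle lists lie on the P2 side in periosteum and bone marrow, and cartilage lies on the P2 side in periosteum and on the P1 side in muscle.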

How the data were processed

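RNA from sorted cells was turned into full-length cDNA with SMART-Seq v4 and into Nextera XT libraries. The authors demultiplexed reads with bcl2fastq, checked them with FastQC, removed adapters with Trim Galore, mapped them with STAR and took them into DESeq2. The genome build, annotation and counting tool are not given in the sources used here. The deposited values are a signal of normalized counts per gene, and whole reads could not be recovered from them, so no count model was run and depth is unknown. The 30153 genes exclude 1 entry for transgenes, and 185 entries share a symbol with another. All value columns were mapped to libraries by name.

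Values were tested as log2(value + 1) with limma 3.58.1 (moderated with a trend) in R 4.3.3, over genes at 10 or more in at least 3 of the 6 libraries. Benjamini-Hochberg adjusted p under 0.05 and an absolute log2 fold change above 1.5 made a call, as in the study's thresholds. Fold changes on this scale understate the change of low genes. The difference between tissues was the interaction of fraction and tissue in 12 libraries. Named genes were the sort markers, the 10 largest called changes each way without overlap and with a mean of at least 100, the first 3 and the 4 highest members of each list, genes the study discusses, and the 5 highest genes of each group; some genes the rule gives are not reported here. Members, lists and tests were chosen with earlier results of these data known. On simulated data for periosteum P1 against P2 over 12667 genes, 14 of 100 genes changed by a log2 of 4 and 26 of 100 changed by 6 were recovered, with 1 other gene called. No further genes were changed there, and those changed were drawn at random, with each gene's own pooled spread. In the data 558 genes were called, so the adjusted threshold differed. These shares therefore do not measure the sensitivity of the comparison itself. Alternatives were other pseudocounts, filters, scalings, variance models, more groups in the fit, a replicate block and leaving out each library. Gene positions come from GENCODE M21 (GRCm38, 29732 IDs found) and promoter windows from RefSeq (GRCm38.p6). Plots were drawn with matplotlib 3.10.9 under Python 3.11.15, and tables were joined with pandas 2.3.3 and numpy 2.4.6.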

Additional observations from a re-analysis of the deposited data

Results flagged for a closer look

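For the genes below the P1 minus P2 log2 change in periosteum differed from that in another tissue by the interaction term in limma, and they were the largest such differences each way among genes with a mean of at least 100 in one of the groups. Several have a group listed at or near 0, so the sizes depend on the pseudocount and are not bounds.

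Against bone marrow, the change was larger in periosteum for Megf6 by 12.18 (adjusted p = 0.00864), Dio2, which activates thyroid hormone, by 11.37 (adjusted p = 0.0116), Slc4a11 by 11.11 (adjusted p = 0.0157), Cst7 by 11.10 (adjusted p = 0.0232) and Myh11, smooth muscle myosin, by 11.09 (adjusted p = 0.0178). The difference was -13.08 for Pth1r, the parathyroid hormone receptor (adjusted p = 0.00415), -11.75 for Serpinh1, a collagen chaperone (adjusted p = 0.00688), -11.31 for Slc7a6 (adjusted p = 0.00143), -11.23 for Nid2 (adjusted p = 0.00688) and -11.22 for Col2a1 (adjusted p = 9.84e-05). Pth1r had group means of 764 in P1 and 1551 in P2 of periosteum and of 13582 and 19.4 in bone marrow.

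Against muscle, the change was larger in periosteum for Car3, a carbonic anhydrase, by 13.19 (adjusted p = 4.66e-06), Mstn (myostatin), which limits muscle growth, by 13.07 (adjusted p = 0.00209), Spns2 by 11.69 (adjusted p = 0.00218), Phospho1, a phosphatase of mineralization, by 11.29 (adjusted p = 0.0084) and Mef2c by 11.07 (adjusted p = 0.0426). The difference was -17.09 for Fam132b (erythroferrone), a secreted hormone (adjusted p = 0.00396), -12.61 for Dgkb (adjusted p = 0.00836), -12.36 for Cdca5, of sister chromatid cohesion (adjusted p = 0.00213), -11.85 for Brca1 (adjusted p = 0.00396) and -11.72 for Ppp1r1b (adjusted p = 0.0296). In muscle Fam132b was at 2229, 3091 and 4790 in P1 and 1.28, 0.675 and 0 in P2. In periosteum it was at 0, 0 and 25.3 in P1 and 10.7, 3356 and 210 in P2, so the step within muscle is part of this difference. Car3 had group means of 10812 in P1 and 53.2 in P2 of periosteum and of 1197 and 49912 in muscle.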

How the results depend on the processing

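For periosteum P1 against P2 (558 genes, 228 and 330), a pseudocount of 0.1 gave 140 higher in P1, no filter gave 220 (60 and 160), a mean of at least 50 gave 118 higher in P1, and all 9 groups in one fit gave 3370 (1846 and 1524), of which 548 were genes of the 558. Same-numbered P1 and P2 libraries did not deviate together (residual r 0.0233, -0.00115 and 0.0229), so the numbers were not taken as pairs; the replicate block gave 186 (46 and 140), including 179 of the 558. Leaving out each library gave 112 to 515 (12 to 292 higher in P1, 56 to 223 in P2). Against bone marrow (645, 390 larger and 255 smaller), a mean of at least 50 gave 277 (74 larger), all 9 groups 1329 (826 and 503) and quantile normalization 319 (86 larger); leaving out each library gave 345 to 1228 (185 to 869 and 157 to 359). Against muscle (989, 548 and 441), all 9 groups gave 2324 (1234 and 1090) and scaling without globins 331 larger and 791 smaller; leaving out each library gave 470 to 1766 (267 to 1175 and 203 to 591). The cause of these shifts was not tested. Fewer samples enter the fits that leave out a library. No named gene reversed its direction with a call under any of these alternatives. The side with more calls did change in each comparison. It changed for P1 against P2 with all 9 groups in one fit (1846 and 1524) and with limma run without a trend (265 and 251). Scaling to the same total per library (295 and 287) and leaving out P2 replicate 1 (292 and 223) changed it too. Without P2 replicate 3 both sides had 56. Against bone marrow the side changed under quantile normalization (86 larger and 233 smaller) and with a mean of at least 50 (74 and 203). Against muscle it changed with scaling without globins (331 and 791). Among results labelled against an alternative, 5349 were labelled the same, 227 lost a call, 98 gained one and 210 counts or values moved. The first label includes genes called in no setting. Bmp2 is such a gene, and its log2 fold change ran from -0.79 to 4.14 when a library was left out. These labels therefore do not measure how stable the calls were. They also do not sum up the shifts in the numbers of called genes given above. The depth behind the normalized counts is unknown, so no counting error can be set beside low values.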
